A study of Mus musculus with 6 samples.

Results

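Of the 38073 cells called in 6 single-cell RNA libraries of mouse splenic CD4 T cells, 5970 (15.7%) were cells with more than 5% and up to 10% of their transcript counts from genes of the mitochondrial genome. A transcript count is a unique molecular identifier (UMI), a tag that marks 1 captured RNA molecule. Members were chosen by this measured share alone among cells that had at least 200 detected genes and at most 12000 UMIs. The mitochondrial share was the sum over the 13 protein genes of mouse mitochondrial DNA. These cells lie above the limit of 5% at which the study's own filter stopped, and their closest comparison is with the 29738 cells of the same libraries at up to 5%. A further 1924 cells were above 10%, 418 cells exceeded 12000 UMIs and 23 had under 200 genes.

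The libraries came from 3 mice labelled H2-O KO and 3 labelled H2-O WT, 1 library per mouse, all C57BL6/J, unimmunized and 8 weeks old by their labels. The study's methods give an older age for the sequenced mice. H2-O is a non-classical MHC class II molecule of B cells, some dendritic cells and the thymic medulla. It acts with H2-M, the molecule that edits the peptides loaded on MHC class II. The study proposes that H2-O cooperates with H2-M in choosing peptides, which it says conflicts with the original model. No promoter, Cre or cell type is named for the KO allele. Live spleen cells were sorted as CD3+ CD4+ B220- NK1.1- with propidium iodide to remove dead cells, and 5' gene expression libraries were made. The labels do not say which H2-O chain was deleted or where, and H2-Oa UMIs were counted in every library, at 171, 66 and 88 in the KO cells at up to 5% and 42, 140 and 132 in the WT cells, in libraries of unequal depth, so that the presence of this RNA does not check the genotype. KO and WT below are the labels of the libraries.

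Background: the share of mitochondrial RNA in a droplet is a ratio. It goes up when mitochondrial transcripts are many and also when the other RNA of the cell is few, as when cytoplasmic mRNA has leaked through a damaged plasma membrane while RNA inside mitochondria and the nucleus stayed behind. Resting T cells are small and hold little cytoplasm. Most abundant cytoplasmic messages of a T cell encode ribosomal proteins, respiratory chain subunits, actin and other short housekeeping proteins, whereas long noncoding RNAs such as Malat1, Neat1, Xist and Kcnq1ot1 stay in the nucleus. Which of these happened in the cells described here was not tested.

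As marker RNAs of these cells Gm26917, Gm42418 and Malat1 had been named with earlier results of these data known, so that their values here are no independent evidence. Gm26917 and Gm42418 are annotated as lincRNAs on mouse chromosome 17 within an interval that also holds an annotated ribosomal RNA (rRNA) gene, so that their counts may include rRNA. Gm26917 spans chr17:39843013-39846341 on the plus strand and Gm42418 spans chr17:39846958-39848788 on the plus strand (GRCm38). The rRNA gene, CT010467.1, spans chr17:39846353-39848827 on the minus strand and covers Gm42418 whole, and a further lincRNA, AY036118, lies in it at chr17:39847113-39848035 on the minus strand. The first 60 bases of both transcripts are shown because Gm26917 differed most of the 3 markers while its neighbour in the rRNA interval did not go the same way in every library. They were read 5′ to 3′ from the transcript sequences of GENCODE vM21, with positions on that build.

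Gm26917-202, chr17:39843013-39843072, plus strand: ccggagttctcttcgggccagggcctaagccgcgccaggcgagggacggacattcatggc

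Gm42418-201, chr17:39846958-39847017, plus strand: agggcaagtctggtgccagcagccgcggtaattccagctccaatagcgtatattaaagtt

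Against all cells at up to 5%, Gm26917 marked the members in every library, Malat1 did so relative to the other RNA, and Gm42418 did not. Among cells of low ribosomal content alone, compared further below, no difference was called for Malat1 (log2 fold change 0.15, adjusted p = 0.44). Gm26917 was at 1972, 1534 and 12632 CPM in KO replicates 1 to 3 and 7765, 2543 and 8087 CPM in WT replicates 1 to 3 in the members, where CPM is the normalised count of a gene per unit of non-mitochondrial UMIs summed per library and class, as the cpm function of edgeR gives it after the trimmed-mean (TMM) scaling of edgeR. In the cells at up to 5% it was at 270.4, 337 and 1092 CPM (KO) and 1788, 505 and 2187 CPM (WT). Every library was higher in the members (log2 fold change 2.48 ± 0.19 SE, adjusted p = 1.3e-10). Malat1, a nuclear long noncoding RNA at chr19:5795690-5802672 on the minus strand, was at 27718, 31632 and 34137 CPM in KO replicates 1 to 3 and 42982, 43929 and 35090 CPM in WT replicates 1 to 3 in the members and at 10096, 12383 and 11677 CPM (KO) and 19461, 15346 and 18880 CPM (WT) in the cells at up to 5% (log2 fold change 1.32 ± 0.22 SE, adjusted p = 1.5e-05). Gm42418 was at 6814, 5955 and 147061 CPM in KO replicates 1 to 3 and 75264, 14813 and 97182 CPM in WT replicates 1 to 3 in the members and at 16833, 15382 and 46791 CPM (KO) and 47329, 20430 and 70561 CPM (WT) in the cells at up to 5%, higher in the members of KO replicate 3 and WT replicates 1 and 3 and lower in those of the other 3 libraries (log2 fold change -0.06 ± 0.35 SE, adjusted p = 0.89). The p-values are those of edgeR's quasi-likelihood test across all genes with Benjamini-Hochberg adjustment, with library as a block. The 3 libraries KO replicate 3, WT replicate 1 and WT replicate 3 stood apart from the others by their Gm42418 level in both classes of cells. The number of genes called between the classes is therefore also given below for these 3 libraries alone and for the others alone.

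The share of called cells within the limits that fell at 5 to 10% differed widely between mice. It was 4.67% in KO replicate 1, 6.38% in KO replicate 2 and 16.8% in KO replicate 3. In the WT libraries it was 29.5%, 12.4% and 28.5% for replicates 1, 2 and 3. KO replicate 3 lay above WT replicate 2, so the genotypes overlapped. The mean was 9.28% ± 6.56 (SD, n = 3) in KO and 23.5% ± 9.61 (SD, n = 3) in WT, or -14.2 points for KO minus WT (p = 0.2, two-sided exact permutation test). With 3 mice against 3 the smallest p this test can give is 0.1. That p was reached, with no overlap of the genotypes, for cells at 5 to 7.5% (-12.4 points), with at least 500 genes per cell (-16.3) and with at least 1000 UMIs (-16.7; exact permutation test). Among cells with at least 10% of their non-mitochondrial UMIs from ribosomal protein genes, the difference in share was -2.86 points (exact permutation p = 0.7). KO replicate 3 was also the library with the largest share above 10%, at 15.6% of its cells, against 5.73% in WT replicate 1 and at most 2.08% in the other 4 libraries. The number of members ranged from 264 in KO replicate 2 to 1994 in WT replicate 3, and their summed UMIs from 439509 to 3316618. Whole libraries held 9973193 to 40237962 UMIs in 3908 to 9131 called cells. Of all the barcodes, 740 occurred in more than 1 library, 13 of them as members in more than 1 library.

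**Figure D1:**
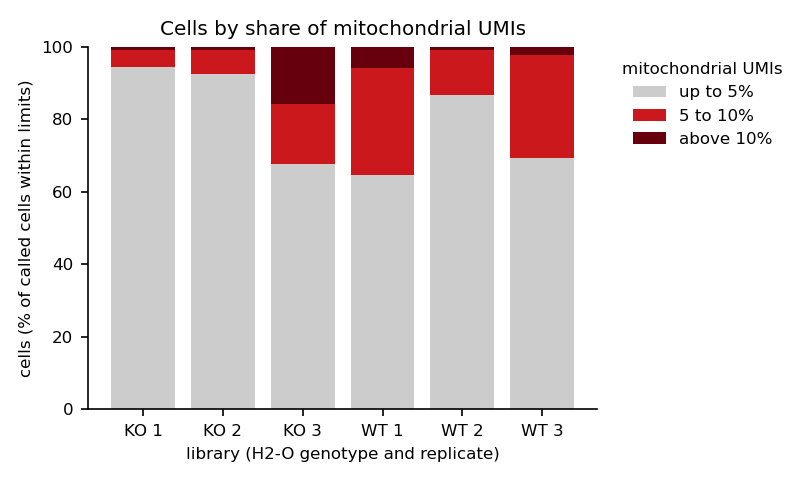
Share of cells within the limits of genes and UMIs (percent, vertical axis) at up to 5%, at 5 to 10% and above 10% mitochondrial UMIs, as stacked bars for each of the 6 libraries. The WT libraries reach 29.5%, 12.4% and 28.5%, and KO replicate 3 at 16.8% lies between them while KO replicates 1 and 2 stay at 4.67% and 6.38%.

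The limits cut a continuous range. The 1307 cells just below 5% (4.5 to 5%) had a median of 1530 non-mitochondrial UMIs and 6.65% of them from ribosomal protein genes. The 1151 cells just above it (5 to 5.5%) had a median of 1484 UMIs and 6.70% ribosomal. At the upper limit, the 254 cells at 9.5 to 10% had a median of 713 UMIs and the 216 cells at 10 to 10.5% had 742. Of the members, 4260 lay at 5 to 7.5% and 1710 at 7.5 to 10%. The steep part of the change in ribosomal content lay below the range: the median ribosomal share was 23.6 to 34.8% over the 6 libraries in cells at 2 to 3%, 4.15 to 8.80% at 4 to 5% and 4.01 to 7.67% at 5 to 6%.

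Against all cells at up to 5%, the members had fewer non-mitochondrial UMIs in every library, and their mitochondrial UMIs differed less. The mean number of mitochondrial UMIs per cell was 101, 110.0 and 71.0 UMIs in KO replicates 1 to 3 and 89.8, 114 and 106 UMIs in WT replicates 1 to 3 in the members, and 100.1, 107 and 74.3 UMIs (KO) and 71.1, 101 and 78.3 UMIs (WT) in the cells at up to 5%. The ratio between the classes was 0.955 to 1.36, below 1 in KO replicate 3 and above 1 in the other 5 libraries. The mean number of non-mitochondrial UMIs was 1423, 1555 and 924 UMIs in KO replicates 1 to 3 and 1247, 1665 and 1557 UMIs in WT replicates 1 to 3 in the members and 4723, 4772 and 3723 UMIs (KO) and 3080, 4711 and 3158 UMIs (WT) in the cells at up to 5%, a ratio of 0.248 to 0.493. Every library was lower in the members. Both numbers enter the share that chose the members, so they are given as a description with no test. Medians of non-mitochondrial UMIs ran from 764 in KO replicate 3 to 1573 in WT replicate 2 in the members, and from 2038 in WT replicate 1 to 4977 in WT replicate 2 at up to 5%. Against cells at up to 5% that also had under 10% of their non-mitochondrial UMIs from ribosomal protein genes, members of that kind had 0.532 to 0.978 times as many non-mitochondrial UMIs and 1.35 to 1.90 times as many mitochondrial UMIs per cell (means). Among all cells, from 4 to 5% up to 9 to 10% the median mitochondrial UMIs went from 78, 85.5 and 64 to 100.5, 132 and 68 in KO replicates 1 to 3 and from 65, 81 and 75 to 97, 153.5 and 122 in WT replicates 1 to 3. The median of other UMIs went from 1609.5, 1841 and 1348.5 to 971, 1248 and 635.5 (KO) and from 1393, 1712 and 1606 to 932, 1453 and 1186 (WT). Along this range mitochondrial UMIs changed least and other UMIs most in KO replicate 3, and the opposite was so in WT replicate 2. Median detected genes were 491 to 1079 per cell in the members and 1225 to 1894 at up to 5%.

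Ribosomal protein messages were scarce in most members. The median cell had 6.75, 5.83 and 7.45% in KO replicates 1 to 3 and 5.06, 3.96 and 7.79% in WT replicates 1 to 3 of its non-mitochondrial UMIs from the 84 ribosomal protein genes. In the cells at up to 5% the median was 33.8, 33.6 and 29.2% (KO) and 13.6, 31.5 and 12.6% (WT). The classes did not overlap between libraries. Of the 5970 members, 5033 (84.3%) had under 10% ribosomal protein UMIs, and these are called low-ribosomal cells here. The share of members that were low-ribosomal was 72.7, 73.1 and 81.3% in KO replicates 1 to 3 and 95, 94.3 and 80.8% in WT replicates 1 to 3. Low-ribosomal cells also occurred below the mitochondrial limit: 5762 of the 29738 cells at up to 5% were low-ribosomal, and their share was 3.17, 7.54 and 15.8% (KO) and 47.2, 22.0 and 42.4% (WT). The nuclear-retained RNAs took the opposite course, with a median of 4.97, 5.20 and 23.9% in KO replicates 1 to 3 and 15.3, 8.21 and 16.5% in WT replicates 1 to 3 of non-mitochondrial UMIs in the members against 1.72, 1.89 and 4.42% (KO) and 9.69, 2.55 and 11.9% (WT) at up to 5%. This list counts the rRNA-locus genes Gm26917 and Gm42418.

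**Figure D2:**
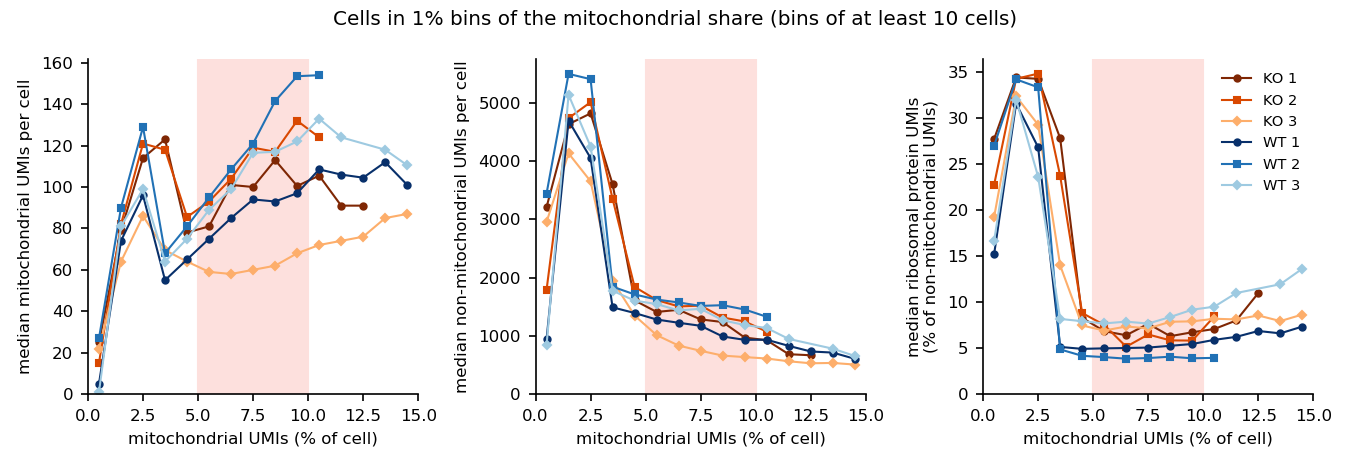
Median mitochondrial UMIs per cell, median non-mitochondrial UMIs per cell and median percent of the latter from ribosomal protein genes (vertical axes) by 1% bin of mitochondrial UMIs (percent of the cell's UMIs, horizontal axis), 1 line per library, with the range of 5 to 10% marked. Just above 5% the median over all cells was 1484 UMIs and 6.70% ribosomal, close to the 1530 UMIs and 6.65% just below it.

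Counted per cell, Xist, Kcnq1ot1 and Gm26917 were more in the members in every library, while the cytoplasmic messages named here were fewer. Malat1 was at 51.9, 66.3 and 33.4 UMIs in KO replicates 1 to 3 and 61.9, 94.1 and 61.4 UMIs in WT replicates 1 to 3 per member, and at 37.1, 47.2 and 34.7 UMIs (KO) and 53.2, 59.3 and 52.7 UMIs (WT) per cell at up to 5%. It was higher per cell in 5 libraries and slightly lower in KO replicate 3. Xist, the noncoding RNA that coats the inactive X chromosome, had a ratio of 1.26 to 1.81 and was higher per cell in all 6. Kcnq1ot1, an imprinted nuclear noncoding RNA, had 1.48 to 2.61 times as many, and Gm26917 2.29 to 3.81 times as many. Gm42418 went the other way in 5 libraries, with a ratio of 0.206 to 0.863, and was at 1.03 in KO replicate 3. Messages of Cd4, the coreceptor that was sorted on, had a ratio of 0.329 to 0.766, and those of Cd3e, a signalling chain of the T cell receptor complex, 0.140 to 0.333. Beta-actin (Actb) had 0.107 to 0.229, Rps29 of the small ribosomal subunit 0.0418 to 0.145 and Atp5e of ATP synthase 0.0432 to 0.132. In these pooled counts, fewer molecules per cell and poorer capture cannot be told apart.

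**Figure D3:**
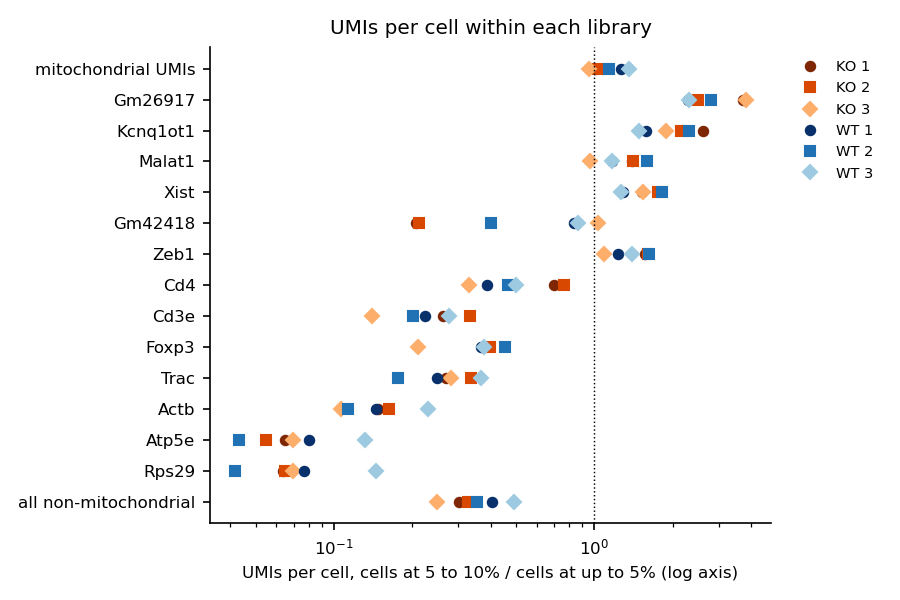
Ratio of mean UMIs per cell in cells at 5 to 10% to that in cells at up to 5% of the same library (log axis), 1 point per library, for mitochondrial RNA, nuclear RNAs and cytoplasmic messages. Mitochondrial UMIs lie at 0.955 to 1.36, Gm26917 at 2.29 to 3.81 and Rps29 at 0.0418 to 0.145.

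The tests that follow compare members with cells at up to 5% of the same library, with UMIs summed per library and class and mitochondrial genes left out. Of 11877 genes tested, 7596 (64.0%) passed an adjusted p of 0.05, with 3726 (31.4%) higher and 3870 (32.6%) lower in the members. The median log2 fold change of all genes was 0.02 with TMM scaling and 0.53 with scaling by library size alone, where 6050 genes were higher and 2042 lower. Changes below are therefore relative to the median gene. In KO replicate 3 and WT replicates 1 and 3 alone 6877 genes were called, and 6164 in the other 3 libraries alone.

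Among the nuclear-retained noncoding RNAs, 8 of 9 were tested and 7 rose, with none lower and a median log2 fold change of 1.29. Kcnq1ot1 was at 251, 224 and 386 CPM in KO replicates 1 to 3 and 363, 297 and 306 CPM in WT replicates 1 to 3 in the members. It was at 49.0, 57.3 and 67.7 CPM (KO) and 121, 71.3 and 129.7 CPM (WT) in the cells at up to 5%, each below the lowest member value (log2 fold change 1.94 ± 0.13 SE, adjusted p = 8.5e-12). Xist rose by 1.58 ± 0.13 and Malat1 by 1.32 ± 0.22 (log2, SE), beside Neat1, the scaffold of nuclear paraspeckles (1.23), Tug1 (1.26) and Ftx, a noncoding gene of the X-inactivation centre (1.19). Outside the list, the largest rises that went the same way in every library were of predicted or poorly described genes, among them Gm43065 (2.33), Gm48027 (2.09) and Utp14b (1.86), and of Mpp7, a scaffold protein of the MAGUK family (1.73). Genes annotated as lincRNA, antisense or processed transcript rose in 332 and fell in 183 of 1045 cases, against 3391 and 3611 of 10696 protein-coding genes. The libraries' strand setting is not given, so antisense genes cannot be told from their partners.

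The falls included nearly all messages of ribosomal proteins and of the respiratory chain. Ribosomal protein genes fell in 81 of 82 tested, with a median log2 fold change of -2.53, with Rpl39 at -2.90, Rps28 at -2.89 and Rps29 at -2.82. All 16 translation factors encoded by 5' TOP messages, which are translated together with those of the ribosomal proteins, fell as well (median -2.0). Nuclear-encoded subunits of the respiratory chain fell in 77 of 78 (median -2.18), although the cells were chosen for a high share of mitochondrially encoded subunits of the same complexes. Atp5e, the epsilon subunit of ATP synthase, was at 135, 97.6 and 217 CPM in KO replicates 1 to 3 and 103, 62.1 and 144 CPM in WT replicates 1 to 3 in the members. It was at 1055, 982 and 1029 CPM (KO) and 677, 798 and 686 CPM (WT) in the cells at up to 5%, with no overlap (log2 fold change -2.80 ± 0.15 SE, adjusted p = 6.5e-13). Cox4i1 of cytochrome oxidase stood at -2.57 and Cycs, cytochrome c, at -2.06. The 18 cytosolic and cytoskeletal messages all fell (median -1.79). Mrpl14 of the mitochondrial ribosome (-2.93) and Ifi27l2a, an interferon-induced protein (-2.92), were among the largest falls of all, as was Gm28901, a lincRNA lower in every library (log2 fold change -3.60 ± 0.24 SE, adjusted p = 1.1e-11) and at a mean of 38.0 CPM in the cells at up to 5%.

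Exon length moved with these differences. The median exonic length was 6956 bases for genes called higher, 2694 for genes called lower and 4195 for genes not called. In 5 equal bins of exonic length, from the shortest to the longest, the median log2 fold change was -0.93, -0.43, -0.03, 0.28 and 0.61. The median span of the genes, introns included, was 49062 bases for genes called higher, 10172.5 for genes called lower and 21398 for genes not called. Whether UMIs in introns were counted is not given in the sources used here, and the part of length or of intron counting in each gene's difference was not tested.

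Nuclear genes that act on mitochondria did not move as 1 group. For comparison, 31.4% of all genes tested rose and 32.6% fell with TMM scaling, and 6050 of 11877 rose and 2042 fell by library size alone. Of 16 genes of mitochondrial transcription and RNA turnover, 10 rose and 2 fell (median 0.40), or 12 rose and 1 fell by library size alone (median 0.91). The risers included Tfb2m, a transcription initiation factor (0.66), the mitochondrial DNA polymerase Polg (0.46) and Lrpprc, which stabilises mitochondrial mRNA (0.52). Those that fell were Tfam, which packages mitochondrial DNA (-0.52), and Slirp, the partner of Lrpprc (-2.43). Import and chaperone genes fell in 12 of 15 and rose in 1 (median -1.27), or fell in 9 and rose in 3 by library size alone (median -0.77). Mitophagy genes fell in 7 of 9 tested and rose in 1 (median -0.74), or fell in 2 and rose in 1 by library size alone (median -0.22), with the receptor Bnip3l at -0.74 (by library size alone -0.22, adjusted p = 0.084) and the kinase gene Ulk1 at 0.92.

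With TMM scaling more genes of cell death and stress fell than rose. The shares over all genes tested were 31.4% higher and 32.6% lower, and by library size alone 6050 of 11877 genes were higher and 2042 lower. These lists were not tested against those shares. Of 20 apoptosis genes, 4 rose and 10 fell (median -0.40), while with scaling by library size alone 7 rose and 5 fell (median 0.14). Bcl2l11, which encodes the pro-apoptotic protein Bim, rose (log2 fold change 1.25 ± 0.08 SE, adjusted p = 8.9e-12), as did the survival gene Bcl2 (0.68), the apoptosome scaffold Apaf1 (0.77) and Mdm2, the p53 ligase (0.46). Bax (-1.54), Bak1 (-1.32) and Bbc3 (-1.13), which act on the outer mitochondrial membrane or its guardians, fell. The integrated stress response had 10 of 12 genes tested, with 6 lower and none higher (median -0.72), or 4 lower and none higher by library size alone (median -0.21), among them its transcription factor Atf4 (-0.86) and the downstream factor Ddit3 (-0.74). Immediate early genes, which are switched on during tissue dissociation, fell in 17 of 20 tested and rose in 1 (median -0.78), or fell in 9 and rose in 3 by library size alone (median -0.24), with Junb at -1.08.

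The members carried the RNA of CD4 T cells. Cd4 was at 447, 439 and 297 CPM in KO replicates 1 to 3 and 269, 316 and 258 CPM in WT replicates 1 to 3 in the members. In the cells at up to 5% it was at 324, 315 and 297 CPM (KO) and 366, 377 and 324 CPM (WT). The classes overlapped and no difference was called (log2 fold change -0.02 ± 0.11 SE, adjusted p = 0.86). By library size alone in place of TMM scaling its log2 fold change was 0.53 (adjusted p = 0.0028). Cd3e was at 544, 629 and 445 CPM in KO replicates 1 to 3 and 341, 347 and 346 CPM in WT replicates 1 to 3 in the members and at 1059, 1038 and 1047 CPM (KO) and 802, 956 and 784 CPM (WT) at up to 5%, lower in every library (log2 fold change -1.14 ± 0.11 SE, adjusted p = 5.1e-09). Among 15 genes of the receptor complex and its proximal signalling 10 fell and 2 rose (median -0.84), or 8 fell and 5 rose by library size alone (median -0.32), with Cd3d at -2.13, and with the costimulatory receptor Cd28 (0.32) higher. The shares over all genes tested were 32.6% lower and 31.4% higher with TMM scaling. By library size alone 2042 of 11877 genes were lower and 6050 higher. Of the members 13 were B cell-like and 15 macrophage-like, that is, they had at least 2 UMIs over B cell markers such as Cd79a, Cd79b and Ms4a1 or over C1qa, C1qb and C1qc and none of Cd3e, Cd3d and Cd3g. Without B cell-like and macrophage-like cells 7590 of 11810 genes were called.

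In the lists of T cell subset markers more genes fell than rose with TMM scaling, and for the naive, follicular helper and Treg lists the order turned with scaling by library size alone. Over all genes tested 32.6% fell and 31.4% rose with TMM scaling. By library size alone 2042 of 11877 genes fell and 6050 rose, and the median of all genes went from 0.02 to 0.53. No list was tested against these shares. Activated and memory T cell genes had the lowest median of these lists, at -2.66, with 9 of 14 lower and 1 higher, or 9 lower and 4 higher by library size alone (median -2.14). Ccl5, a chemokine of memory and effector T cells, was at 30.5, 5.42 and 16.9 CPM in KO replicates 1 to 3 and 6.65, 7.06 and 22.9 CPM in WT replicates 1 to 3 in the members. It was at 307, 112 and 287 CPM (KO) and 87.7, 163 and 200.1 CPM (WT) at up to 5%, lower in every library (log2 fold change -3.64 ± 0.14 SE, adjusted p = 4.0e-14). S100a6 (-3.64), S100a4 (-3.25) and Nkg7 (-2.93) fell, whereas Ahnak, a giant scaffold protein of the same list, rose (0.53). Naive T cell genes fell in 6 of 11 and rose in 2 (median -0.47), or fell in 4 and rose in 5 by library size alone (median 0.07), with the lymph node homing receptor Ccr7 at -0.64 (by library size alone -0.0883, not called) and the chromatin organiser Satb1 at 0.89. Interferon response genes fell in 11 of 12 (median -0.98), or fell in 8 and rose in 2 by library size alone (median -0.46), including the tetherin gene Bst2 (-1.99). Follicular helper genes fell in 4 of 8 and rose in 1, or fell in 2 and rose in 3 by library size alone. NK and NKT cell genes fell in 5 of 9 tested and rose in 1, the NKT cell factor Zbtb16 (1.25). Cell cycle genes fell in 5 of 11 and rose in 1. In both of these lists 4 fell and 2 rose by library size alone.

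Treg genes were split, with 6 of 12 lower and 3 higher (median -0.23), or 5 lower and 6 higher by library size alone (median 0.31). With TMM scaling 32.6% of all genes tested were lower and 31.4% higher, and by library size alone 2042 of 11877 were lower and 6050 higher. Foxp3, which encodes the lineage factor of regulatory T cells, was at 45.8, 52.4 and 47.2 CPM in KO replicates 1 to 3 and 38.1, 45.2 and 33.2 CPM in WT replicates 1 to 3 in the members. It was at 63.3, 72.3 and 74.2 CPM (KO) and 54.6, 55.2 and 55.2 CPM (WT) at up to 5%, lower in every library (log2 fold change -0.54 ± 0.10 SE, adjusted p = 3.6e-05). By library size alone no difference was called (log2 fold change -0.00698, adjusted p = 0.97). Tnfrsf4, the receptor OX40, fell (-1.17), and Ikzf2, the factor Helios, rose (0.89), as did the IL-2 receptor chain Il2ra (0.98). To compare shares of cells at equal depth, each cell was thinned to 1000 non-mitochondrial UMIs, which used 4025 members and 28055 cells at up to 5% and left out 1945 and 1683 shallower ones. A Foxp3 UMI was then found in 4.47, 6.11 and 5.39% in KO replicates 1 to 3 and 3.22, 4.58 and 3.78% in WT replicates 1 to 3 of members. In the cells at up to 5% the share was 4.07, 4.64 and 5.04% (KO) and 3.4, 3.89 and 3.48% (WT). The mean was 4.59% ± 1.05 against 4.09% ± 0.645 (SD, n = 6), higher in the members in 5 of 6 libraries (p = 0.0625 by an exact paired permutation test, two-sided). The difference of 0.505 points was 0.00640 points when cells were thinned to 500 UMIs (exact permutation p = 0.94) and 1.15 points at 2000 UMIs (exact permutation p = 0.59). In unthinned cells the order was the opposite, 4.98% against 8.67% (exact permutation p = 0.03125, the smallest that 6 pairs can give), so no order of the classes is read from it. In the B cell-like and macrophage-like cells, which should lack Foxp3, 1 of 129 thinned cells (0.775%, exact 95% interval 0.0196 to 4.24, counting error only) held a UMI; their median depth before thinning was 3071 non-mitochondrial UMIs, against 1500 in the members and 4345 at up to 5%.

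Few genes differed between the members and the other cells of low ribosomal content. When only low-ribosomal cells were compared, 5033 members against 5762 cells at up to 5%, 20 of 9630 genes (0.208%) were called, with 8 (0.0831%) higher and 12 (0.125%) lower, and 939 genes had an unadjusted p under 0.05. Of the 20, 19 had been called with the same sign in the comparison of all cells. The median log2 fold change of respiratory chain subunits was -0.07 in place of -2.18. That of ribosomal protein genes was 0.07 in place of -2.53, which the limit on ribosomal share in both classes fixes in large part. In the other cells, those with at least 10% ribosomal protein UMIs, 3702 of 11042 genes (33.5%) were called from 937 members, 1581 (14.3%) higher and 2121 (19.2%) lower. When the cells at up to 5% were drawn to match the members' UMIs within each library, 1346 of 9407 genes were called, and 70 of 9208 when they were drawn to match UMIs and ribosomal share.

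Among low-ribosomal cells the members had more Gm26917 and Kcnq1ot1 and less actin message. Gm26917 was at 3.34, 3.08 and 11.9 UMIs in KO replicates 1 to 3 and 11.4, 5.69 and 15 UMIs in WT replicates 1 to 3 per cell in low-ribosomal members. It was at 2.59, 2.88 and 6.71 UMIs (KO) and 8.82, 4.58 and 10.5 UMIs (WT) in low-ribosomal cells at up to 5%, lower there in every library (log2 fold change 0.76 ± 0.12 SE, adjusted p = 4.3e-04). The other genes called higher were Kcnq1ot1 (0.53), the histone methyltransferase gene Kmt2d (0.46), Ski, a repressor of TGF-beta signalling (0.43), the complement regulator Cd55 (0.35), the transcription factor Zeb1 (0.35), Bcl2 (0.30) and the kinesin gene Kif1b (0.30). Malat1 was not among them (log2 fold change 0.15 ± 0.07 SE, adjusted p = 0.44). Actg1 (log2 fold change -0.43 ± 0.07 SE, adjusted p = 0.0021), Actb (-0.38), the GTPase Rac2 (-0.35), Sept9 of the septin cytoskeleton (-0.33), the actin-binding calponin Cnn2 (-0.32) and S100a6 (-1.09) were lower. The remaining 6 genes called lower rested mostly on 1 or 2 libraries: S100a9, a calprotectin subunit of neutrophils, had 276 UMIs in KO replicate 3 and 87 in WT replicate 2 in the low-ribosomal cells at up to 5% and 0 in every other library and in all low-ribosomal members, and Ighv3-6 had 1040 UMIs in KO replicate 3. The other 4 were S100a8, Igkv5-39, Jchain and Cxcl2.

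**Figure D4:**
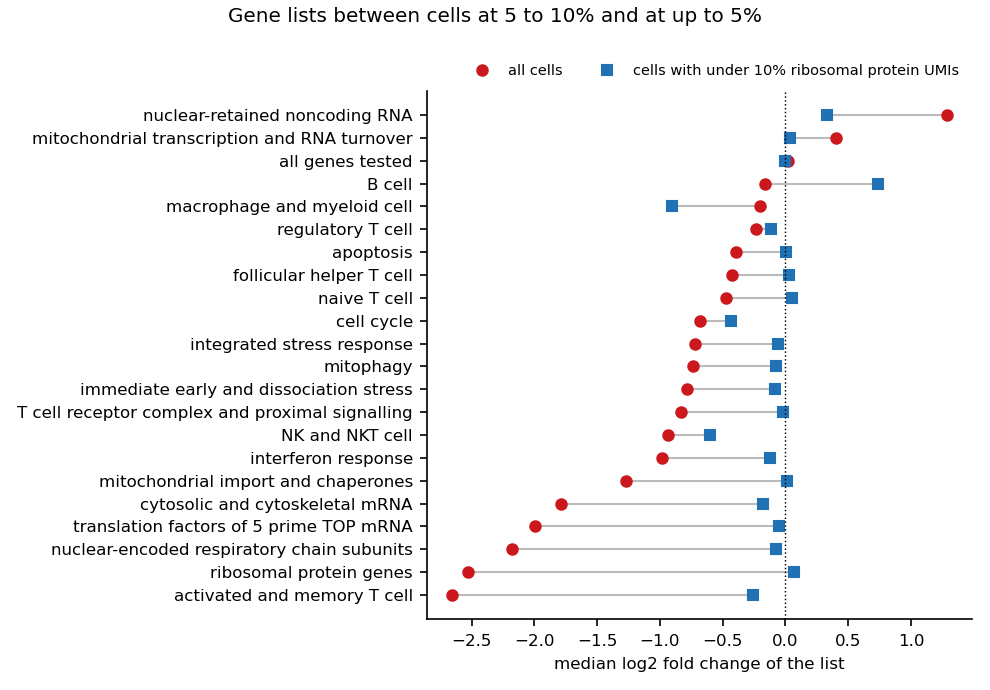
Median log2 fold change of each gene list (horizontal axis) between cells at 5 to 10% and cells at up to 5%, for all cells and for low-ribosomal cells alone. The respiratory chain list lies at -2.18 in all cells and at -0.07 in low-ribosomal cells, and the nuclear-retained list at 1.29 and 0.33; the ribosomal protein list in low-ribosomal cells is set largely by how those cells were chosen.

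Markers of other cell types moved in the members with at least 10% ribosomal protein UMIs. There, 10 of 13 B cell genes were higher and 1 lower (median 1.23), and 8 of 10 tested macrophage and myeloid genes were higher and 1 lower (median 2.07). The B cell list made up 0.227, 0.445 and 0.0382% (KO) and 0.0279, 0.0659 and 0.0292% (WT) of non-mitochondrial UMIs in these members, highest in KO replicates 1 and 2, and 0.0568, 0.0614 and 0.0674% (KO) and 0.0418, 0.0440 and 0.0557% (WT) in their counterparts at up to 5%. Among all members the B cell list had 1 gene higher, the B lineage factor Ebf1 (0.83), and 1 lower, Ighm (-1.54), of 13, with a median of -0.17 that turned to 0.35 by library size alone. The macrophage list had none higher and 4 lower of 12, with a median of -0.20 that turned to 0.32. The median of all genes was 0.53 by library size alone. The part of these cells in the differences of other genes was not tested, beyond the count without the B cell-like and macrophage-like cells given above.

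Of the 13 mitochondrial genes, 3 took a part of the mitochondrial RNA that moved one way in all 6 libraries. As a part of all mitochondrial UMIs, mt-Co1, the catalytic subunit of cytochrome oxidase, was 19.9% ± 0.265 against 20.5% ± 0.487 (SD, n = 6), lower in the members in 6 of 6 libraries. The complex I gene mt-Nd5 was 2.5% ± 0.266 against 2.62% ± 0.295, lower in 6 of 6. The complex III gene mt-Cytb was 12.2% ± 1.44 against 11.8% ± 1.34, higher in 6 of 6. Each had the smallest p that 6 pairs can give (exact paired permutation test, two-sided, p = 0.03125), and none of the 13 genes passed after Benjamini-Hochberg adjustment (adjusted p = 0.135 for these 3). With 6 pairs and 13 genes this adjusted test could pass only if most of the genes had the smallest p, so it says nothing on whether the make-up was stable. In low-ribosomal cells alone mt-Cytb and mt-Nd5 were each higher in the members in 3 of 6 libraries and mt-Co1 in 1 of 6, and 3 genes turned to move one way in all 6 libraries: mt-Nd4 from -0.17 to 0.25 points and mt-Nd1 from -0.049 to 0.135 points, both higher in the members, and mt-Nd4l from 0.066 to -0.352 points, lower in them.

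Between KO and WT members, 138 of 8854 genes (1.56%) were called by edgeR's quasi-likelihood test, 89 higher in KO (1.01%) and 49 lower (0.553%). The count rested on single mice: it was 13 without KO replicate 1, 20 without KO replicate 2, 15 without WT replicate 1 and 23 without WT replicate 2, and 423 without KO replicate 3 and 285 without WT replicate 3. By library size alone 44 genes were called between KO and WT members, 33 higher in KO and 11 lower, and with the replicate number as a block 574 were. The genotype contrast in the cells at up to 5%, with TMM scaling and no such block, gave 4350 of 12468 genes. In members the low-ribosomal share was 72.7, 73.1 and 81.3% in KO and 95, 94.3 and 80.8% in WT, and the median exonic length was 2877 bases for genes higher in KO, 7796 for genes lower and 4771 for genes not called. Within low-ribosomal members 36 of 8615 genes were called, 27 of them higher in KO.

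Of the genes with no overlap between the libraries of the genotypes, 4 are given first. These were also called in the cells at up to 5%, as were some of the genes named after them. Dnah8, an axonemal dynein heavy chain gene at chr17:30624354-30877365 (plus strand, GRCm38), was at 439.8, 387 and 707 CPM in KO members. It was at 178, 159 and 144 CPM in WT members (log2 fold change 1.72 ± 0.19 SE, adjusted p = 7.0e-04). Its neighbour Glo1, the glyoxalase I gene at chr17:30584936-30626871 on the minus strand, overlaps it, so that their reads could be split or shared. Glo1 was at 74.9, 56.0 and 67.4 CPM in KO replicates 1 to 3 and 26.0, 24.7 and 25.2 CPM in WT replicates 1 to 3 (log2 fold change 1.42 ± 0.18 SE, adjusted p = 0.0015). Sh3pxd2a, which encodes a podosome scaffold, was lower in KO at 29.1, 19.9 and 18.2 CPM in KO replicates 1 to 3 and 72.5, 60.0 and 79.1 CPM in WT replicates 1 to 3 (log2 fold change -1.69 ± 0.22 SE, adjusted p = 0.0015). Dnah8, Glo1, Arl6ip1, an endoplasmic reticulum protein gene (1.33), and Sh3pxd2a passed without any 1 of the 6 libraries and among low-ribosomal members alone. Among members with at least 10% ribosomal protein UMIs, Arl6ip1 turned to -0.11 and was not called. In the cells at up to 5% the log2 fold changes between the genotypes were 1.30 for Dnah8, 1.70 for Glo1, 0.31 for Arl6ip1 and -1.62 for Sh3pxd2a (adjusted p = 3.1e-04, 2.2e-05, 0.022 and 6.8e-05). On chromosome 17, which carries the H2 region with both H2-O chain genes, 16 of 467 tested genes (3.43%) were higher and 6 (1.28%) lower in KO. Over all genes tested these shares were 1.01% and 0.553%.

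Other genes higher in KO members included Cxcr3, a chemokine receptor of type 1 helper T cells, at 40.2, 41.6 and 24.9 CPM in KO replicates 1 to 3 and 9.67, 13.4 and 7.74 CPM in WT replicates 1 to 3 (log2 fold change 1.81 ± 0.30 SE, adjusted p = 0.013). The activated and memory list had 3 of 14 genes higher and none lower (median 0.79); 1 of the 3, S100a4, lost its call without any 1 of the 6 libraries (adjusted p up to 0.13). The receptor complex list had 4 of 15 higher, among them Cd3d (0.75, adjusted p = 0.027) and Cd3e (0.66, adjusted p = 0.046), and the Treg list had 2 of 12 higher, Nrp1 and Izumo1r (medians 0.50 and 0.62). Over all genes tested 1.01% were higher in KO members with TMM scaling, and 33 of 8854 by library size alone. By library size alone 2 of 14, 2 of 15 and none of 12 were higher in these 3 lists. Neither Cd3d (log2 fold change 0.80, adjusted p = 0.061) nor Cd3e (0.72, adjusted p = 0.13) was called there, at fold changes no smaller. None of the 81 tested ribosomal protein genes was called, though their median was 0.46, against 0.01 for all genes. Lower in KO were Cd2ap, an adaptor of the T cell adhesion receptor CD2 (log2 fold change -0.88 ± 0.14 SE, adjusted p = 0.0077), Mid1, a microtubule-bound ubiquitin ligase gene (-1.53), the deacetylase gene Hdac8 (-0.99), Bcl2l11 (-0.61) and Gm21887 (-2.31), a near-identical copy of Erdr1 whose reads may be split between the copies. Without KO replicate 1, none of these 5 passed, at an adjusted p of up to 0.18 over the 6 fits without 1 library. Mid1, Hdac8, Bcl2l11 and Gm21887 also lost their calls without any 1 of KO replicate 2 and WT replicates 1 and 2, and Gm21887 without WT replicate 3. By library size alone Hdac8 (log2 fold change -1.01, adjusted p = 0.064) and Bcl2l11 (-0.58, adjusted p = 0.18) were not called, at fold changes about as large. Cxcr3 lost its call without KO replicate 1, KO replicate 2 or WT replicate 1 (adjusted p up to 0.08), and Cd3d and Cd3e without any 1 of KO replicates 1 and 2 and WT replicates 1 and 2, and Cd3e also without WT replicate 3 (up to 0.17 and 0.23). In the cells at up to 5%, genes also called lower in KO were Cd2ap (-0.78), Mid1 (-0.65), Hdac8 (-0.60), Bcl2l11 (-0.64) and Gm21887 (-3.39). Cd3d was called higher there (0.37), while Cd3e (0.26) and Cxcr3 (0.31) were not called.

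Among the gene lists, that of B cells had the largest share higher in KO members, with 6 of 9 tested higher, none lower and a median of 2.55. Among low-ribosomal members, none of 6 tested was called (median 1.12). There the log2 fold change was 1.70 for Cd74 (adjusted p = 0.072), 1.96 for H2-Aa (0.125) and 1.51 for H2-Ab1 (0.24), each smaller than in all members. H2-Ob was at 1.14 (adjusted p = 0.086), about as large as in all members. H2-Aa, a chain of the classical MHC class II molecule of antigen-presenting cells, was at 65.2, 163 and 29.0 CPM in KO replicates 1 to 3 and 6.04, 14.8 and 9.46 CPM in WT replicates 1 to 3 (log2 fold change 2.98 ± 0.50 SE, adjusted p = 0.013). Cd74, the invariant chain, was at 247, 618 and 121 CPM in KO replicates 1 to 3 and 39.9, 58.6 and 46.4 CPM in WT replicates 1 to 3 (log2 fold change 2.74 ± 0.41 SE, adjusted p = 0.006), and the others were Cd79a (2.86), H2-Ab1 (2.28), H2-Eb1 and Ly6d. H2-Ob, which encodes the beta chain of H2-O, was at 40.2, 48.8 and 29.0 CPM in KO replicates 1 to 3 and 11.5, 18.4 and 19.8 CPM in WT replicates 1 to 3, higher in the KO libraries (log2 fold change 1.16 ± 0.27 SE, adjusted p = 0.046), from 29, 27 and 43 UMIs in KO and 19, 26 and 69 in WT. H2-Oa had 4, 1 and 7 UMIs in KO members and 4, 8 and 15 in WT members, which was too few to be tested. In the cells at up to 5% H2-Oa was at 5.97, 4.52 and 4.85 CPM in KO replicates 1 to 3 and 6.1, 7.84 and 9.76 CPM in WT replicates 1 to 3, lower in every KO library (log2 fold change -0.68 ± 0.20 SE, adjusted p = 0.024). In the same cells 8 of 13 tested genes of the B cell list were also higher in KO and none lower (median 0.83). Over all genes tested there, 1981 of 12468 were higher. The log2 fold change there was 0.60 for H2-Ob (adjusted p = 0.0029), 0.87 for Cd74 (0.0041) and 0.95 for H2-Aa (0.0058). Each was smaller than in all members. The sorting gate excluded B220+ cells. The B cell-like members were 1, 3 and 5 in KO and 1, 3 and 0 in WT, and the B cell list made up 0.0860, 0.176 and 0.0390% (KO) and 0.0207, 0.0244 and 0.0229% (WT) of the members' non-mitochondrial UMIs, highest in KO replicate 2. Without the B cell-like and macrophage-like cells 64 genes were called between the genotypes, among them Cd74 and H2-Aa but not H2-Ab1 or H2-Ob. Cd74 passed without any 1 library, H2-Aa did not pass without KO replicate 1 or WT replicate 1 (adjusted p up to 0.079), and Cd79a, H2-Ab1 and H2-Ob lost their calls when any 1 of KO replicates 1 and 2 and WT replicates 1 and 2 was left out, H2-Ab1 also when WT replicate 3 was (adjusted p up to 0.12, 0.17 and 0.2). By library size alone 5 of the 9 B cell genes were higher, against 33 of 8854 genes tested, and H2-Ob was not called (log2 fold change 1.21, adjusted p = 0.094).

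**Figure D5:**
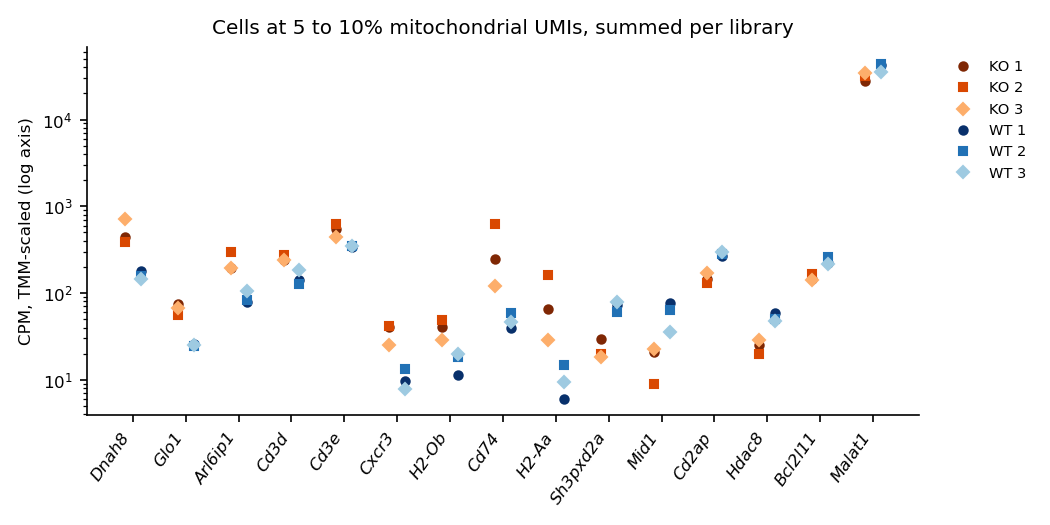
CPM of 15 genes in the members of each library (log axis), KO and WT replicates 1 to 3 as points. Dnah8, Glo1 and Cxcr3 are higher in all 3 KO libraries and Sh3pxd2a is lower in all 3, with no overlap between the genotypes.

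After thinning to 1000 UMIs, a Foxp3 UMI was found in 5.32% ± 0.825 of KO members and 3.86% ± 0.686 of WT members (SD, n = 3), or 1.46 points more, with overlapping libraries (p = 0.2, two-sided exact permutation test). Thinning to this depth left out 1219 KO members and 726 WT members. At 500 UMIs, which left out 121 and 26, the difference was 0.830 points with no overlap (exact permutation p = 0.1, the smallest that 3 against 3 can give). It was 4.43 points at 2000 UMIs (exact permutation p = 0.2) and 0.365 points without thinning (exact permutation p = 0.8). Whether the members' differences from the cells at up to 5% depended on genotype was tested with an interaction term. None of 11877 genes (0%) passed by edgeR's quasi-likelihood test, 846 had an unadjusted p under 0.05, and DESeq2 called 2. Some other settings called more: 27 in low-ribosomal cells, 36 without a count filter, 39 without KO replicate 3 and 78 with the replicate number as a block. Gm26917 had an interaction of 0.76 ± 0.34 (log2, SE, adjusted p = 0.69) and Foxp3 of -0.02 ± 0.20 (adjusted p = 1).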

How the data were processed

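The authors deposited, per the file headers, raw UMI counts per gene and called cell, made with Cell Ranger 6.1.2 on mm10 (submitters' processing notes); the intron and strand settings are not given in the sources used here. The 6 filtered matrices were used as deposited. Members and gene lists were chosen with earlier results of these data known. The ranges of total and member UMIs per library are given in the report. Counts of 0 and intervals cover counting error only. No doublet caller was run; at most 0.301% of the members of a library held both a Cd3 UMI and 2 B cell marker UMIs.

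UMIs were summed per library and class without the 13 mitochondrial genes, filtered with filterByExpr, scaled by TMM and tested by edgeR 4.0.16 (R 4.3.3) quasi-likelihood fits: class with library as a block, genotype over the 6 member sums, and class by genotype. P-values were Benjamini-Hochberg adjusted over all genes tested, with 0.05 as the threshold. Single values were tested by exact permutation (scipy 1.17.1). The fits were tested on simulated counts. DESeq2 1.42.0, other scaling, no count filter, other cell limits, matched cells and the replicate block were alternatives; cells matched on UMIs and ribosomal share, the 2 sets of 3 libraries, the low-ribosomal values of Foxp3, UMIs and mitochondrial genes, and the genotype contrast at up to 5% were chosen after seeing the data. Genes were annotated from GENCODE vM21 (GRCm38), which matched 32158 of 32285 gene IDs.

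Named genes were the 3 markers, H2-Oa, H2-Ob, Foxp3, Cd4 and Cd3e, up to 10 of the largest rises and falls per test among called genes with a mean of at least 20 CPM whose libraries all went the same way, and up to 4 called members of each list by mean CPM. Other list members named in the text, and those called among low-ribosomal cells, were chosen after their values were seen.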

Additional observations from a re-analysis of the deposited data

How the results depend on the processing

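All values are for cells at 5 to 10%. The genotype difference in their share was -2.86 points among cells with at least 10% ribosomal protein UMIs. For thinned Foxp3 shares the difference from cells at up to 5% was 0.00640 points at 500 UMIs, 1.15 at 2000 UMIs, -3.69 without thinning and -0.260 in low-ribosomal cells, and KO minus WT was 0.830 points at 500 UMIs, 4.43 at 2000 UMIs and 0.365 without thinning. The mean log2 difference in median non-mitochondrial UMIs was -1.45; it was -0.298 in low-ribosomal cells, -2.15 with at least 10% ribosomal UMIs and -1.64 to -1.28 without single libraries.

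Genes called against cells at up to 5% were 3702 with at least 10% ribosomal UMIs, 20 in low-ribosomal cells, 4824 against cells at 2.5 to 5%, 1346 with matched UMIs and 70 with matched UMIs and ribosomal share, against 7052 to 7433 without single libraries. Without a count filter the split was 3290 higher and 4301 lower. Genes called between KO and WT were 44 without TMM (33 higher, 11 lower), 583 without a count filter (318 higher, 265 lower), 6 with at least 10% ribosomal UMIs, 36 in low-ribosomal cells, 64 without B cell-like and macrophage-like cells, and 13 to 423 without single libraries. Interaction calls were 2 without TMM, 2 by DESeq2, 36 without a filter, 10 with at least 10% ribosomal UMIs, 27 in low-ribosomal cells and 0 to 39 without single libraries. The cause of these changes was not tested; fewer cells or genes entered several of them.

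With the replicate number as a replicate block, 574 genes were called between KO and WT and 78 for the interaction. Same-numbered members correlated at -0.034, 0.165 and 0.218 in their deviations from the group means, so the numbers were not taken to pair the mice.

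Of log2 fold changes against cells at up to 5% that had a call in at least 1 of the settings compared, these turned sign. In low-ribosomal cells they were Atp5e 0.20, Ccr7 0.12, Cox4i1 0.0067, Mpp7 -0.012, Rpl39 0.18, Rps28 0.16 and Rps29 0.14. With matched UMIs Ccr7 was at 0.049. With ribosomal share matched as well, Ccr7 was at 0.18, Cycs 0.037, Mpp7 -0.034, Rpl39 0.036, Rps28 0.029 and Rps29 0.0043. Without TMM, Cd4 was at 0.53, Mcl1 at 0.095 and Gm21887 at 0.085; Gm42418, H2-Ob, Cd74, H2-Aa, H2-Ab1 and Cd79a, with no call in either fit, also turned from negative to between 0.090 and 0.48. Gm42418 was at 0.69 with at least 10% ribosomal UMIs and at 0.93 in KO replicate 3 and WT replicates 1 and 3. H2-Oa was at 0.14 with at least 10% ribosomal UMIs and at 0.070 against cells at 2.5 to 5%. By DESeq2, Ighv3-6 was at 0.46, S100a8 at 1.73 and S100a9 at 1.71. Between KO and WT with at least 10% ribosomal UMIs, Arl6ip1 was at -0.11 and Cd3e at -0.076. Of the gene-level values under all alternatives, 1131 kept sign and side of the threshold, 158 lost the call, 16 gained it, 32 without a call moved and 25 with a call turned sign. Members had a median of 764 to 1573 non-mitochondrial UMIs per cell, which limits rare transcripts.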
